A study of Glycine max with 3 samples.

Results

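The strongest cut sites of a soybean leaf degradome are described here. They are the sites at which the authors' deposited target table lists an abundance of 100 TPB or more, so the members were chosen by their measured TPB, the authors' normalised abundance of read ends at the cut position. A member, called a cleavage unit below, is a miRNA family, a gene locus and a position in the transcript. Of 511 such units in the table, 186 reached 100 TPB (36.4%, which is set by the rule and carries no result of its own). They came from 316 of the 898 pairs of miRNA and transcript in the table, and covered 124 of 275 gene loci and 33 of 54 families. Each locus was listed for 1 family among the strong units.

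The degradome was 1 library from a mixture of leaves of Taiwan 75, a cultivar of vegetable soybean (Glycine max). Control plants grew at a day temperature of 25 °C and a night temperature of 17 °C, and chilled plants were moved to 4 °C for 24 h. The 2 small RNA libraries of the study, 1 control and 1 chilled, each pooled leaves of 3 replicates at the stage of 1 true leaf. The label of the degradome library names a stage of 10 days after pollination instead, with leaf as its tissue, and which stage holds could not be settled. Because both kinds of leaf were mixed in 1 library, TPB has no replicate and carries no difference between chilled and control plants.

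A plant miRNA guides an Argonaute protein to a closely complementary messenger RNA, which is cut opposite the middle of the miRNA. The downstream fragment keeps a free 5′ end, and degradome sequencing reads such ends, so that a pile of ends at the predicted position marks a possible cut. Many conserved plant miRNAs target transcription factors of development, and others act on nutrient transport or disease resistance genes. Target tables rate each pair by an alignment score, which counts mismatches so that 0 is a perfect match, and by a category, in which 0 usually marks the one position with the most ends on its transcript and 2 a position above the typical level that is not the top one. The files do not define these terms.

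A choice of the miRNAs on which the results turn is shown first, 5′ to 3′ as the table writes them (T for U), with the seed, bases 2 to 8, in capitals. It holds miRNAs of the highest values, the members of pairs with shifted 5′ ends, both arms of 1 hairpin, and miR399d, whose perfect matches had the lowest TPB of the strong units. The pair of miR396 sequences shares a seed and differs at the last base. The miR395d sequence is the start of miR395i, and miR156b and miR395a begin 1 base further upstream than miR156a and miR395d.
miR396a-5p: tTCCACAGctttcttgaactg
miR396b-5p: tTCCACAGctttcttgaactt
miR395d: tGAAGTGTttgggggaac
miR395i: tGAAGTGTttgggggaactct
miR395a: cTGAAGTGtttgggggaactc
miR4996: tAGAAGCTccccatgttctca
miR164a: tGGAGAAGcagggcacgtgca
miR160a-5p: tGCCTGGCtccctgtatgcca
miR167e: tGAAGCTGccagcatgatctta
miR156a: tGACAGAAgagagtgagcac
miR156b: tTGACAGAagagagagagcac
miR1514a: tTCATTTTtaaaataggcattg
miR5767: tGGAGGACctttgaaggtgca
MIR5767-p3: tCACCATTaagacagagacctt
miR399d: tGCCAAAGgagatttgcccag
Of the 59 distinct miRNA sequences listed for strong units, 58 were also in the small RNA tables. These 58 held 46 different seeds, and 21 of them shared one of 9 seeds with another.

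TPB among the strong units ran from 102 to 21899 with a median of 358, so a few sites stood far above the rest. At or above 200 TPB there were 132 units, at or above 1000 TPB 51, and at or above 5000 TPB 7. Transcription factor classes made up 100 of the 186 units, at 57 loci. The class patterns were searched in the annotation and symbol alone, so factors outside them, such as ABF2, LBD21 and WRKY51, count as other. A further 11 units fell in the nutrient, disease resistance and pentatricopeptide repeat classes, and 75 units at 59 loci had another annotation or none. The transcription factor units had a median TPB of 749 and a median alignment score of 2, and 77 of them were listed in category 0. The 75 other units had a median TPB of 285 and a median score of 3.5, and 14 were in category 0 while 58 were in category 2.

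**Figure D1:**
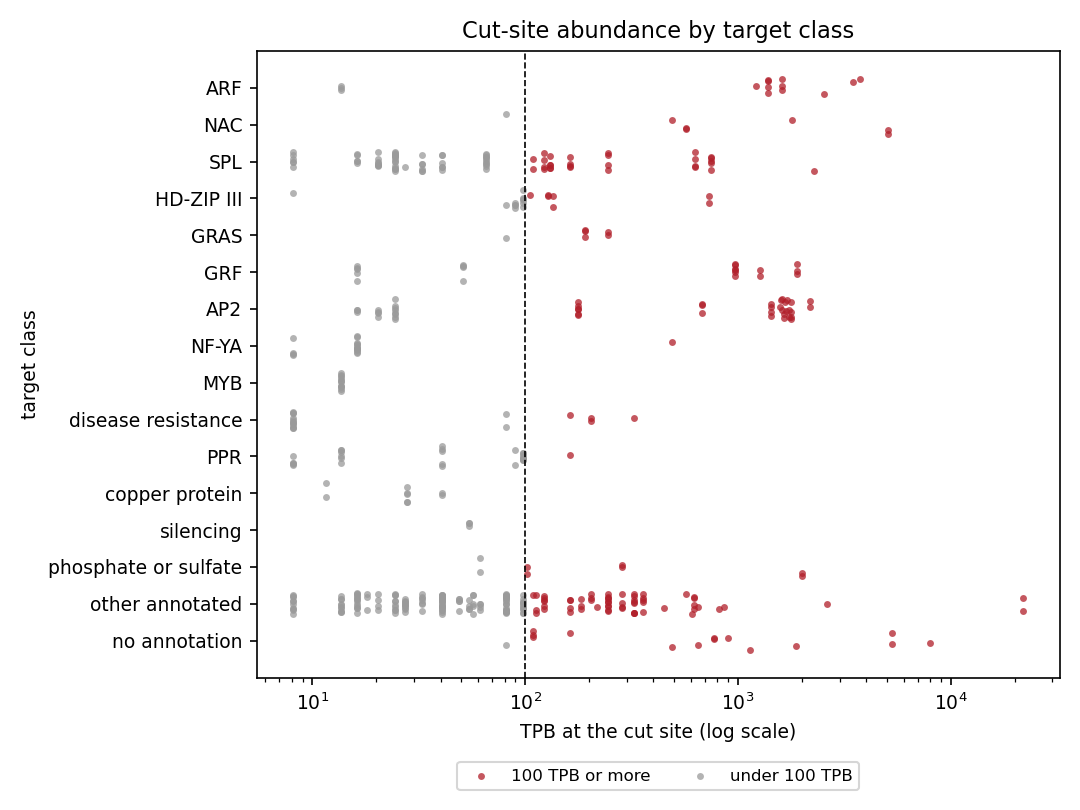
Each point is 1 cleavage unit, placed by its TPB on a log axis and by the class of its target annotation, with points spread vertically for legibility. Red points are the 186 units at 100 TPB or more, grey points the 325 under it, and the dashed line is 100 TPB; the strong ARF units lie between 1221 and 3745 TPB, while the MYB, copper protein and silencing classes have no point to the right of the line.

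The auxin response factors, which bind promoters of auxin-regulated genes, had all of their strong units listed for miR160a-5p. The 11 units at 10 loci lay between 1221 and 3745 TPB, with alignment scores from 0 to 1, and all 11 were in category 0. ARF17 at Glyma.13G084700 (position 1504) had 3745 TPB, ARF16 at Glyma.19G181900 (position 2263) had 3460 TPB with a score of 0, and ARF17 at Glyma.14G166500 (position 1184) had 2524 TPB. The remaining ARF17 locus, Glyma.04G254200, was the lowest of the class at 1221 TPB. ARF10 at Glyma.13G325200 and ARF16 at Glyma.10G210600, Glyma.12G174100 and Glyma.20G180000 each carried the same 1384 TPB, and the ARF16 loci Glyma.10G053500 and Glyma.13G140600 each carried 1615 TPB. The class had 3 further units, none of them listed for miR160, at 13.6 TPB each with a median score of 3, so no ARF unit lay between 13.6 and 1221 TPB.

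NAC transcription factors, a plant-specific family with roles in organ boundaries, ageing and stress, were listed for miR164a and for the legume miR1514. The NAC1 loci Glyma.08G173400 (position 730) and Glyma.15G254000 (position 729) shared 5088 TPB at a score of 2, the highest value in the transcription factor classes. The miR1514 units were all annotated as NTL9, a NAC-like factor, with 1791 TPB at Glyma.07G048100, 570 TPB at Glyma.16G016600 and Glyma.16G016700, and 488 TPB at Glyma.07G048000. All 6 NAC units had scores of 1 or 2 and were in category 0 or 1. One NAC unit stayed under the threshold, at 81.4 TPB.

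SPL factors, which promote the change from the juvenile to the adult phase, gave 29 strong units at 13 loci, all of the miR156 family, but 57 units of the class fell under 100 TPB. SPL9 at Glyma.03G117600 (position 1159) was highest at 2279 TPB, in category 0 with an authors' p-value of 0.267. After it came Glyma.16G054500 and Glyma.19G094000 at 749 TPB and Glyma.02G121300 at 631 TPB, followed by SPL2 at Glyma.18G005600 with 244 TPB. Glyma.04G159600, Glyma.05G019000 and Glyma.17G080700 stood at 163 TPB. The SPL9 loci Glyma.03G143100 and Glyma.19G146000 and the SPL12 loci Glyma.12G226000 and Glyma.13G274900 had 122 TPB, and Glyma.07G199000, listed as SPL3 and SPL4 by isoform, had 109 TPB. The median alignment score was 1 both in the strong and in the weaker SPL units. Of the 29 strong ones, 5 had an authors' p-value under 0.05. Counted by locus, 13 of the 16 SPL loci had a strong unit. The weaker units had a median of 19 listed transcripts for their locus, and the strong units 2. Positions are counted per isoform, so a few loci weigh on that median. Among them were Glyma.11G251500 with 19 listed transcripts and Glyma.01G063700 with 10.

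The AP2-type factors of the miR172 family, which delay flowering and shape floral organs, gave 30 strong units at 10 loci with a median of 1600 TPB. Glyma.15G044400 was highest at 2182 TPB in both of its isoforms. Glyma.12G073300 ran from 1587 to 1734 TPB over 4 isoforms and Glyma.U022100 from 1571 to 1734 TPB over 7. Glyma.10G116600 had 1771 TPB and Glyma.13G329700 had 1425 TPB in each of 4 isoforms. Glyma.05G091200 and Glyma.17G170300 shared 678 TPB, although their score was 4, and Glyma.01G188400 and Glyma.11G053800 had 176 TPB. Of the 30 units, 27 were in category 0 and 10 had an authors' p-value under 0.05.

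Growth-regulating factors, which sustain cell division in young leaves, were listed for miR396a-5p and miR396b-5p. Their 11 strong units at 7 loci had scores of 3 or 3.5, and all were in category 0. The GRF2 loci Glyma.01G148600 and Glyma.09G212500 stood at 1900 TPB, GRF7 at Glyma.06G134600 at 1262 TPB, and the GRF1 loci Glyma.17G232600, Glyma.17G232700, Glyma.U028600 and Glyma.U028700 at 965 TPB. The 9 other GRF units did not pass 50.9 TPB. Their median score of 3 was close to that of the strong units, 3.5.

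HD-ZIP III factors, which set the upper side of the leaf and vascular pattern, sat close to the threshold. The REV loci Glyma.11G145800 and Glyma.12G075800 had 733 TPB for miR166. The other strong loci were the PHB loci Glyma.08G124400 and Glyma.09G023600 at 136 TPB and Glyma.05G166400 at 128 TPB, and ATHB15 at Glyma.08G202000 at 106 TPB. In the 12 weaker units of the class the median was 93.6 TPB and the highest 97.7 TPB. GRAS factors of the HAM3 type, which maintain meristems, had 5 strong units of 6 in the MIR171 family, with 244 TPB at Glyma.01G079500 and Glyma.U013800 and 190 TPB at Glyma.01G136300 and Glyma.03G031800. Of 18 units annotated as NF-YA, subunits of a CCAAT-binding factor and targets of miR169, 1 was strong, NF-YA1 at Glyma.08G335900 with 488 TPB. The highest of the other 17 was 16.3 TPB.

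**Figure D2:**
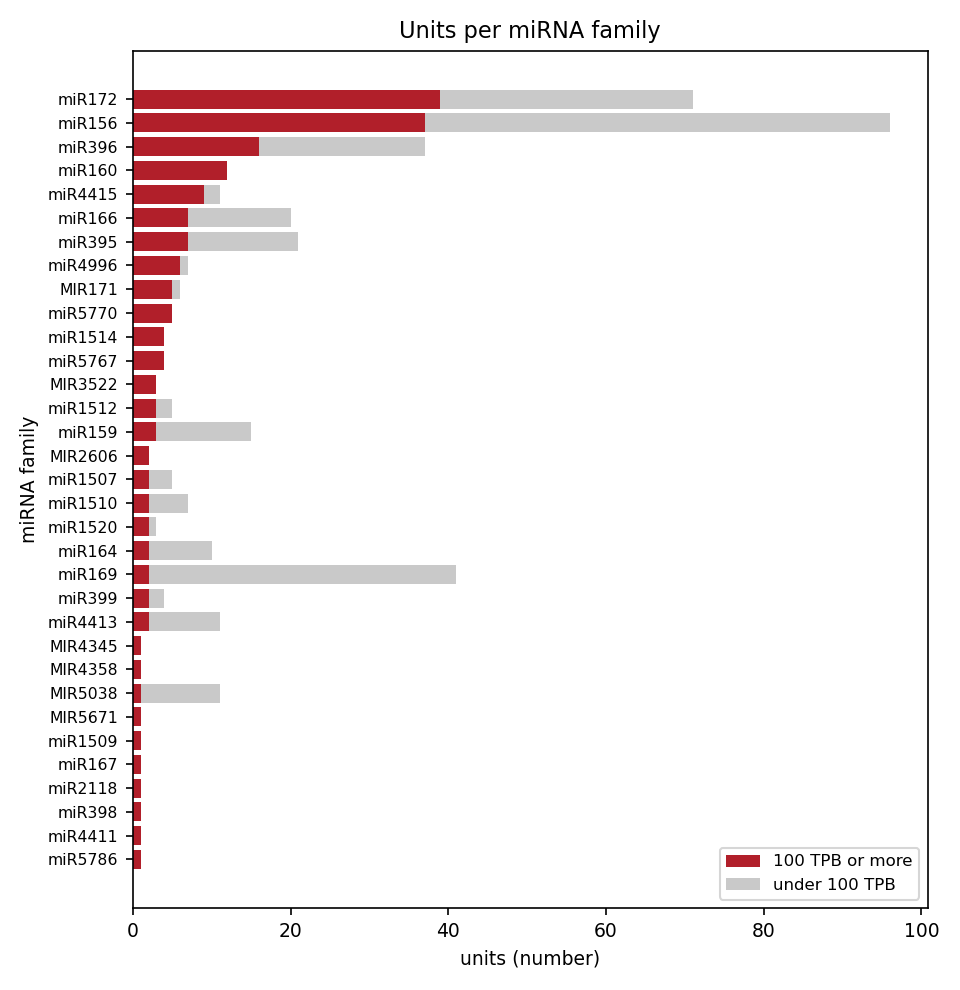
Bars give the number of cleavage units of each of the 33 families with a strong unit, red for those at 100 TPB or more and grey for those under it. All 12 miR160 units are red, against 39 of 71 for miR172, 37 of 96 for miR156 and 2 of 41 for miR169.

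ATP sulfurylase 1, the first enzyme of sulfate assimilation and a target of miR395, was listed at Glyma.10G242600 (position 540) and Glyma.20G151500 (position 505) with 1995 TPB each, in category 2 at both. PHO2, an enzyme that marks phosphate transporters for breakdown and a target of miR399, had 102 TPB at Glyma.13G239100 and Glyma.15G074200. Both PHO2 loci matched miR399d with a score of 0 and were the lowest strong units of all. Among resistance genes, which detect pathogens inside the cell, 3 loci were strong: Glyma.03G137200 for miR1507a at 326 TPB, Glyma.15G232400 for miR1510a-3p at 204 TPB and Glyma.05G006900 for miR1507c-3p at 163 TPB. The other 14 resistance gene units had a median of 8.14 TPB. Pentatricopeptide repeat proteins, which process organelle RNA, had 1 strong unit of 28, Glyma.07G101300, with a perfect match in the miR4413 family and 163 TPB. Its weaker units included those of Glyma.14G149300, listed for MIR5038a-p5 on 8 transcripts. That locus reached 97.7 TPB on a single transcript and 765 TPB summed over the 8. The class was matched by name, and tetratricopeptide repeat annotations, a different protein type, were counted in it where present. RPF2 at Glyma.07G100300, an RNA processing factor of the pentatricopeptide repeat type, is counted outside the class. It also had 163 TPB and a score of 0 for miR4413. The MYB class had 0 strong of 12 units, the copper proteins 0 of 9 and the silencing genes 0 of 3, with highest values of 13.6, 40.7 and 54.3 TPB. The copper class was matched by name and misses the ascorbate oxidases described below, which are copper enzymes too.

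The 2 highest values of the table lay outside these classes. Glyma.03G157700 (position 1638) and Glyma.19G159900 (position 2114), both annotated as E1-E2 type ATPases, a family of ion and lipid pumps, had 21899 TPB each for miR396. Their best scores were 3.5 and 4, and the authors' p-values 0.0331 and 0.235, both in category 0. Next came a locus without annotation, Glyma.05G216000, at 7978 TPB for miR395d. It had a score of 4, category 2 and an authors' p-value of 1. Glyma.05G126800, also without annotation, had 5292 TPB for miR4996 at positions 697 and 875 of 2 isoforms, again with a score of 4 and category 2. Glyma.13G183200, the other unannotated miR4996 locus, had 1872 TPB in category 0. BRIZ2, a RING finger protein, was listed for miR167e at Glyma.15G005300 (position 1630) with 2605 TPB, a score of 4 and category 0; it was the single target listed for the miR167 family. Of the 15 units with the highest TPB, 8 were in transcription factor classes and 5 had a score of 4, the poorest score in the table.

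Other groups outside the fixed classes were smaller. For miR4415a-3p, 4 loci annotated as L-ascorbate oxidases, cell wall enzymes that oxidise vitamin C, each had 358 TPB, namely Glyma.13G076900, Glyma.20G051600, Glyma.20G051700 and Glyma.20G051900. An RNA-binding protein locus of the same miRNA, Glyma.18G077300, had 244 TPB at 4 isoforms. The chloroplast chaperone genes CLPC1 at Glyma.04G200400 and Glyma.06G165200 had 244 and 285 TPB for miR5770a, with scores of 4. A helicase locus, Glyma.09G156000, was the one miR160 target that is no ARF, at 611 TPB and a score of 2. ABF2, a factor of abscisic acid signalling, had 619 TPB at Glyma.04G039300 and Glyma.06G040400 for opposite arms of miR156 hairpins. All of these ABF2 units had a score of 4 and category 2. LBD21 at Glyma.18G025600 had 244 TPB for the same arms, with a score of 3.5 and category 0. MIR156d-p3, listed for both genes, had 2 control and 1 chilled deposited reads. The kinase KIN10, an energy sensor, had 112 TPB at Glyma.18G262900 in 3 isoforms for opposite arms of miR1512 hairpins, with a score of 3.5 and category 2. Sequences named in capitals with p3 or p5, called opposite arms here, led 24 strong units of 12 families. None of these 24 fell in the fixed transcription factor classes, and 1 was in category 0. The label goes by the name alone, since MIR166l-p3 has the seed of miR166a-3p. MIR166l-p3 and MIR171d-p3 were also listed on strong HD-ZIP III and GRAS units, which other sequences led. Among units under 100 TPB the share led by opposite arms was 19.4% (95% Wilson interval 15.5 to 24.0), against 12.9% (8.83 to 18.5) in the strong ones.

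One unannotated transcript was listed for both arms of the same hairpin. Glyma.16G147100.1 had 1140 TPB at position 218 for miR5767 and 895 TPB at position 167 for MIR5767-p3, each at a score of 0. The positions lie 51 bases apart. In the hairpin, which the small RNA table places at 30784546 to 30784656 on the minus strand of chromosome 16 (no label or file names its genome build), the 5′ ends of the arms also lie 51 bases apart. Listed positions follow from where each arm aligns, so this spacing describes the sequences and is no result of the read ends. Whether the transcript overlaps the hairpin could not be read, as no sequence or location of the transcript was at hand. Other miR5767 units were an F-box protein at Glyma.02G041600 with 814 TPB and a score of 1, and an unannotated locus, Glyma.16G058900, with 488 TPB and a score of 0 for the opposite arm.

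Several loci carried listed cut sites 1 base apart. Such pairs occurred on 31 transcripts of 12 loci, counting pairs in which at least 1 site reached 100 TPB. The position listed for a miRNA follows from where that miRNA aligns, so the gap of 1 base between sites is that between the 5′ ends of the miRNAs and is no result. What differs is the TPB at each position. The higher value exceeded the lower by 2.67 to 104 times. Within SPL loci the higher position was not the same. Glyma.02G121300 had 631 TPB at the miR156a position and 20.4 TPB at the miR156b position, and Glyma.18G005600 had 244 and 20.4 TPB. Glyma.16G054500 and Glyma.19G094000 were reversed, with 130 TPB at the miR156a position and 749 TPB at that of miR156b, and so was Glyma.07G199000 with 40.7 and 109 TPB. Thus 2 SPL loci peaked where miR156a is listed and 3 where miR156b and its seed-sharing relatives miR156c, miR156p and miR156r are listed. Both ATP sulfurylase loci peaked at the miR395d position, with 1995 TPB, against 285 TPB at the miR395a position. The WRKY51 loci Glyma.05G184500 and Glyma.08G142400, of a family of defence regulators, had 81.4 TPB for miR172i-3p and 326 TPB 1 base further for miR172a.

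**Figure D3:**
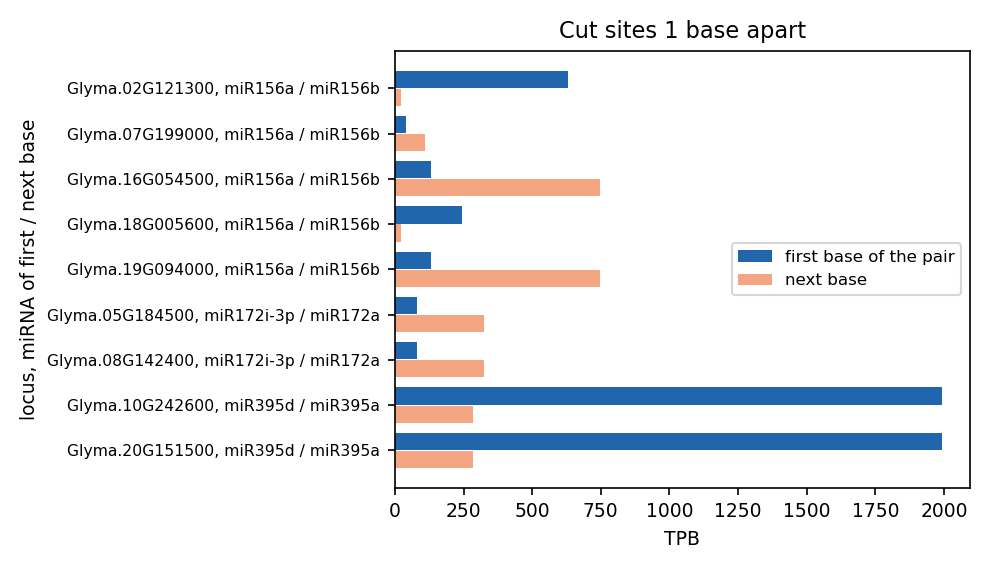
Paired bars give TPB at 2 listed cut positions 1 base apart on the first transcript of each locus, blue for the first base and orange for the next, with the miRNA listed for each beside the locus name (Glyma.12G073300, Glyma.12G135100 and Glyma.U022100 are not drawn). At Glyma.02G121300 and Glyma.18G005600 the blue bar is longer, whereas at Glyma.07G199000, Glyma.16G054500 and Glyma.19G094000 the orange one is.

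The number of units overstates the number of distinct cuts, since positions are counted along each transcript. Of the 124 pairs of a family and a locus, 34 had more than 1 strong position, together 96 units. In 29 of the 34, each transcript carried 1 strong position and the positions differed between isoforms, and in 27 every position had the same TPB. The 5 with more than 1 strong position on a transcript were the ATP sulfurylase loci, Glyma.16G054500, Glyma.19G094000 and Glyma.16G147100. Of the 186 units, 107 shared their exact TPB with another locus of the same family. With 1 position per locus and TPB value, 137 units remained, and with 1 per locus 124.

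Some TPB values were whole multiples of a common step. With a step of 81.4 TPB, defined as 10 times the lowest value of 8.14 TPB, 22 of the 83 distinct values were whole numbers of steps within 0.001 of a step, and the limit of 100 TPB was 1.23 steps. The files do not say how many reads a step stands for. Apart from a power of 10, the step equals 1 divided by 12283683, a whole number. A step of 1 read in a library of 12283683 reads would have this form. The files give neither the library size nor the unit, so the depth behind a value was not established. If a step were 1 read, the limit of 100 TPB would be 1.23 reads as listed. The PHO2 units would then rest on 1.25 reads as listed, or 5 over the 4 transcripts that carry the value. Strong units up to 244 TPB would rest on 3 reads or fewer as listed. Whether a step is 1 read was not tested. On the scale of steps the ATPase sites stood at 269 steps, NAC1 at 62.5 and ARF17 at 46. Of 145 strong signals of a miRNA at one TPB value, 58 were whole numbers of steps as listed and 97 after multiplication by the number of transcripts that carry them. NAC1, at 2 transcripts, then came to 125 steps and the SPL loci with 749 TPB, at 5 transcripts, to 46. How the authors shared reads among isoforms and near copies is not stated in the files, so values of such loci are uncertain. Adding TPB over the transcripts of a locus, for 1 miRNA at a time, put 143 pairs of a family and a locus at 100 TPB or more, 19 more than the single transcripts did. The highest sum of those 19 was 765 TPB over 8 transcripts, at Glyma.14G149300 of the pentatricopeptide repeat class. Also among them was the SPL locus Glyma.11G251500, whose highest single value was 40.7 TPB and whose sum over 19 transcripts was 570.

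Units just inside and just outside the limit were alike in value. The lowest strong units were the 2 PHO2 loci at 102 TPB and ATHB15 at Glyma.08G202000 at 106. At 109 TPB followed both isoforms of Glyma.07G199000, tied with the miR159 loci Glyma.12G228100 and Glyma.13G271900 and the miR4411 locus Glyma.10G040700. Just below the limit, 27 units shared 97.7 TPB. The first 5 of them were Glyma.03G261000, a pyruvate dehydrogenase subunit listed for MIR159d-p3, and the HD-ZIP III loci Glyma.04G085000, Glyma.05G101500, Glyma.07G016500 and Glyma.07G016700. At 29 units under 100 TPB the same family and locus also had a strong unit.

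Alignment score, which the rule did not use, and isoform number, on which TPB may depend, were then set beside those of the 325 weaker units. The score was 2 or less in 82 of 186 strong units (44.1%, 95% Wilson interval 37.1 to 51.3) and in 117 of 325 weaker ones (36.0%, 31.0 to 41.4), and the median was 3 in both. This order turned round at a limit of 50 TPB (37.4% and 40.8%) and among units of category 0 or 1 (64.0% and 66.7%). Counted once per family and locus, it was 52 of 124 strong (41.9%) and 35 of 160 weaker (21.9%) pairs. Over all 511 units, Spearman's rho of TPB and score was -0.02, as a description, since units share reads and paralogs. Perfect matches of score 0 made up 13 strong units (6.99%) and 23 weaker ones (7.08%). Intervals of these shares treat units as independent, which they are not.

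**Figure D4:**
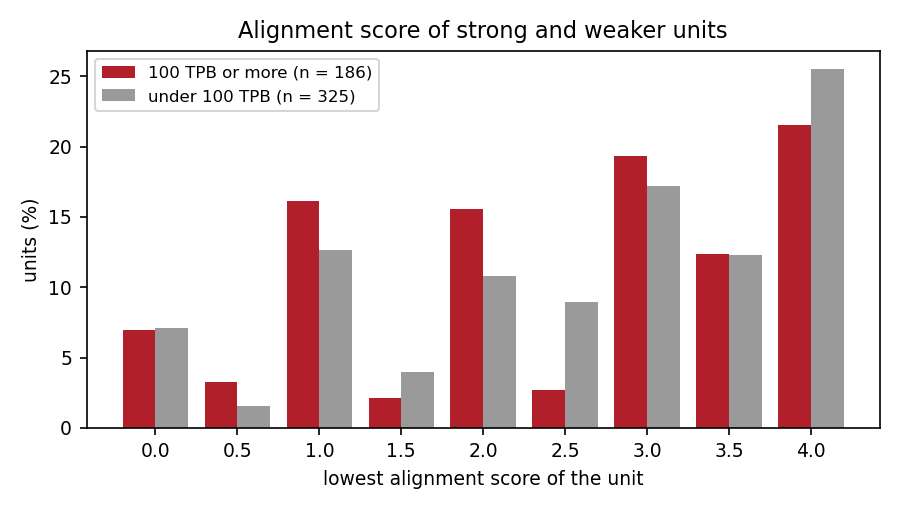
Bars give the share of units, in percent, at each alignment score from 0 (perfect) to 4, red for the 186 units at 100 TPB or more and grey for the 325 under it. Both sets reach from 0 to 4, with a score of 4 in 21.5% of strong and 25.5% of weaker units.

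Transcription factor classes made up 53.8% of strong units (46.6 to 60.8) and 39.1% of weaker ones (33.9 to 44.5). Counted once per family and locus the shares were 46.0% and 17.5%, and without miR172 and miR156 they were 37.3% and 23.5%. At a limit of 50 TPB the shares were closer, at 45.7% and 42.9%. A locus with 1 listed transcript held 86 strong units (46.2%, 39.2 to 53.4) and 101 weaker ones (31.1%, 26.3 to 36.3). Counted once per family and locus, the shares were 66.9% (58.3 to 74.6) and 60.6% (52.9 to 67.9), and the intervals overlapped. The number of listed transcripts per locus reached 7 among strong units and 19 among weaker ones. If reads were shared among isoforms, TPB per transcript would fall as their number rises. The isoform shares would then not be independent of the rule. As given above, 58 of 145 strong signals were whole steps as listed and 97 after multiplication by their transcripts. Whether the isoform shares follow from this was not tested. By category, 93 strong units were in 0, 7 in 1 and 86 in 2, with 0 in categories 3 and 4, whereas 140 weaker units were in category 4; category and TPB come from the same read ends, so this is a description. The authors' p-value was under 0.05 for 56 strong and 22 weaker units. By class these were 11 of 11 strong ARF units, 6 of 6 NAC, 6 of 7 HD-ZIP III and 2 of 5 GRAS. They were 10 of 30 AP2 units, 5 of 29 SPL, 0 of 11 GRF and 0 of 1 NF-YA.

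The miRNAs behind strong cut sites ranged from scarce to abundant in the separate small RNA libraries. Their mean normalised reads, over the control and the chilled library, ran from 0.0765 to 38458 with a median of 46.8, against 23.3 for the 28 sequences whose highest TPB was under 100. For a sequence with several entries, reads are those of its highest entry and not a sum. Such were miR160a-5p with 6 entries, the 18-nt miR395d sequence with 5 and miR399d with 4. Whether the deposited fractions are reads shared among entries is not stated, so their abundance may be understated. Of the 58 sequences, counted this way, 15 had 1000 reads or more and 10 had less than 1. Among the scarce ones were miR399d, with 0 control and 0.75 chilled reads before scaling, and the 18-nt sequence listed as miR395d, with 0.4 and 1.54 deposited reads, which was listed for 7978 TPB. By contrast miR1509a, at 29495 control and 48785 chilled deposited reads, had 163 TPB at its one listed locus, Glyma.04G195800. Across 86 sequences with both measures, Spearman's rho of highest TPB and mean reads was 0.22; the sequences of a family share targets and reads, so no test is given.

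**Figure D5:**
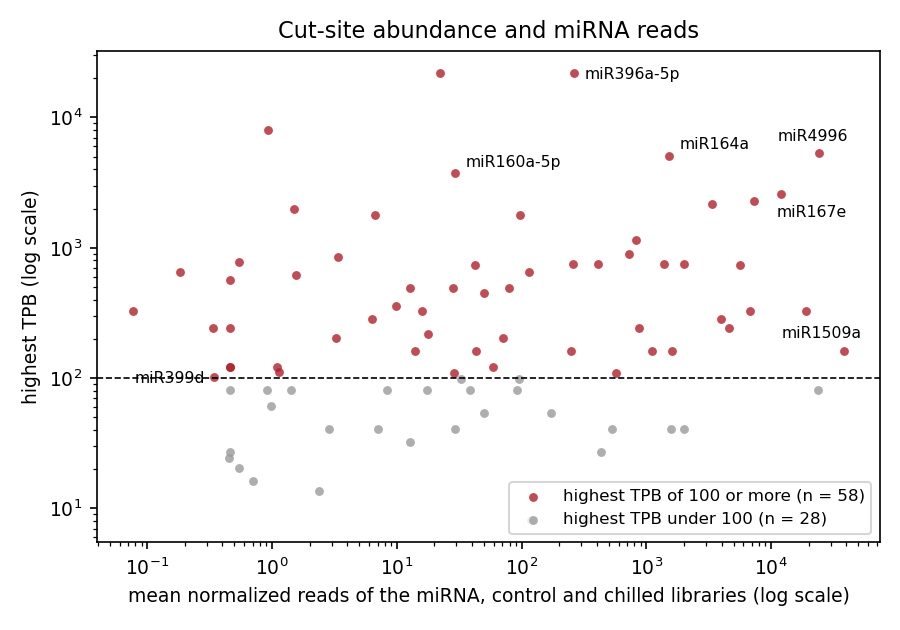
Each point is 1 miRNA sequence, with its mean normalised reads in the 2 small RNA libraries on the horizontal and its highest TPB on the vertical axis, both on log scales. Red points reach 100 TPB (dashed line) and grey points do not; red points span the whole range of reads, from 0.0765 to 38458.

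The reads of these miRNAs also bear on chilling, which TPB cannot. With 1 library per condition there is no test; a sequence was called at a 2-fold difference with at least 10 normalised reads in 1 library. Of 41 sequences above that minimum, 5 were higher in the chilled library (12.2%, against 14.1% of all 213 sequences) and 8 lower (19.5%, against 16.4%). Both shares lay near those of all sequences. The higher ones were miR164a, miR1514b, miR169c, miR1507a and miR4411, and the lower ones miR396a-5p, miR156a, miR156r, miR172b-5p, miR172h-5p, miR4413a, miR4413b and miR5767. miR164a, listed for the NAC1 loci, had 584 control and 2634 chilled deposited reads, a log2 ratio after scaling of 1.93 (95% exact interval 1.80 to 2.06). miR156a, listed for SPL loci, had 10368 and 3431 reads and a log2 ratio of -1.84 (-1.90 to -1.79), and miR156r had 2402 and 137 reads and -4.36 (-4.64 to -4.13). For miR396a-5p, listed for the GRF loci, the reads were 323 and 187 and the log2 ratio -1.03 (-1.30 to -0.77). miR1514b, listed for the NTL9 loci, rested on 3 and 11 reads, and its interval, -0.29 to 4.11, included 0. miR160a-5p, listed for the ARF loci, had 22.7 and 37.2 reads and was not called, at 0.45 (-0.35 to 1.26). The arms of the miR5767 hairpin differed in sign, with miR5767 at -1.13 (-1.28 to -0.98) and MIR5767-p3 at 0.84 (0.68 to 1.00), each keeping its sign under the 4 scalings run. Of the 13 calls, 4 were lost under another scaling. Unscaled reads ended those of miR5767 (-0.88) and miR396a-5p (-0.79), and equal table totals that of miR1507a (0.87). Both DESeq2 size factors and equal table totals took miR1514b below the minimum of 10 reads. Other calls were gained. miR4996, at -0.999 by TMM, was lower under DESeq2 size factors (-1.05) and equal table totals (-1.22). miR1507c-3p was lower under equal table totals (-1.15), and MIR5767-p3 (1.08) and miR2118a-5p (1.05) were higher in unscaled reads. The intervals given here cover counting error between 2 libraries only. They rest on the rounded reads of 1 entry per sequence. For sequences with several entries they may therefore misstate the counting error of the miRNA. Among these were miR156a with 12 entries, miR164a with 10, miR160a-5p with 6 and miR396a-5p with 4.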

How the data were processed

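The members and lists were chosen with earlier results of these data known. Per the file headers, the authors deposited for each pair a cut position and its TPB signal, a normalised abundance whose unit is not explained. The alignment score, the category and the p-value of each pair are the authors' values, as deposited. The target caller and the build are not named in the labels or files read. Family names were filled down, and loci are transcript names without the last number. Units take the highest TPB and the lowest score of their rows. Classes are patterns in the deposited annotation and symbol. Gene names are the authors': the RefSeq gene table given holds no matching identifiers.

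The deposited raw reads per miRNA are expected counts, many of them fractions. They were rounded for scaling with edgeR 4.0.16 (TMM, in R 4.3.3); DESeq2 1.42.0 size factors, equal table totals and unscaled reads were alternatives. By TMM the log2 scale factor was larger by 0.25 in the chilled library. One entry, that with the most reads, was kept per sequence and entries were not summed. Ratios use a pseudocount of 1. With 1 library per condition, intervals cover only the counting error of the kept entry. The scripts were tested on simulated data.

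Named units are the 15 with the highest TPB, the highest of each class, those nearest the limit and loci with several strong positions; other loci and miRNAs were picked with their values known. One miR172 target locus is not reported here.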

Additional observations from a re-analysis of the deposited data

How the results depend on the processing

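The count of 186 strong units fell to 51 at a limit of 1000 TPB, to 100 with category 0 or 1 alone and to 56 with the authors' p-values under 0.05; the other 7 settings gave 124 to 278. The share of strong units with an alignment score of 2 or less was 37.4% at 50 TPB and 64.0% in category 0 or 1, in both cases under the share of weaker units, and 33.6% without miR172 and miR156; the cause was not tested. Transcription factor classes made up 46.0% counted once per locus, 45.7% at 50 TPB and 37.3% without miR172 and miR156, against 17.5%, 42.9% and 23.5% of weaker units. Loci with 1 transcript held 44.6% at 50 TPB and 50.8% at 200 TPB, and 66.9% of pairs counted once per locus, against 60.6%. Of the 13 miRNA sequences called between the small RNA libraries, the number called was 8 at a minimum of 100 reads, where fewer sequences (25) are tested, and 9 kept their call under the 4 scalings. Leaving out 2 families, counting score and isoforms once per locus, merging positions, summing TPB and dropping opposite arms were chosen after seeing the data. No paired analysis was possible because each group is 1 library. The reads behind a TPB value are not given, so its precision is unknown, and 27 units lay just under the limit at 97.7 TPB.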

Other observations

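One listed pair carries a miRNA name outside its family block: MIR393g-p3, at Glyma.08G176900 with 326 TPB, stands under MIR3522 in the authors' deposited table, and was kept there by the rule. Of the 54 families, 21 had no strong unit, among them miR1508 with 21 units and a highest TPB of 81.4, miR397 with 9 laccase-type units up to 40.7 TPB, and miR5674 with 10 units at 97.7 TPB each. In 15 families every listed unit was strong, the largest being miR160 with 12.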
